A study of Homo sapiens with 30 samples.

Results

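TET2 was set against CTCF in HEK293T cells that still had their CTCF. HEK293T is an established human embryonic kidney line, and here its CTCF had been edited so that the auxin indole-3-acetic acid (IAA) can trigger its degradation. The members are the regions of 2 peak lists from chromatin immunoprecipitation with sequencing (ChIP-seq), 1326 regions called with an antibody against TET2 and 42925 called with an antibody against CTCF, of 70565 regions in the 8 lists of the series. Rows of a list that shared a base were joined into 1 region. A TET2 region that shared at least 1 bp with a CTCF region is described as at CTCF, and every other TET2 region as away from CTCF. Every member of both lists was used, with no filter on low values.

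The TET2 group and the CTCF group each hold 3 samples, taken at 72 h in medium without IAA (1 label names DMSO). These cells also received plasmids for ScFv-miniIAA7-mEGFP and AtAFB2-mCherry, as did the cells of the series given 0.5 mM IAA, so they carry the whole degradation system and differ from unedited HEK293T. The sources used here do not say whether the edited line is 1 clone. The authors pooled the 3 samples of a group before calling peaks, so there is no value per sample, no replicate error and no test over samples.

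CTCF is a zinc-finger protein that binds a long DNA motif, marks the anchors of chromatin loops and, at part of its sites, binds less well when the motif is methylated. TET2 is a dioxygenase that oxidises 5-methylcytosine to 5-hydroxymethylcytosine and further products, the first steps of active DNA demethylation. Unlike TET1, TET2 has no CXXC DNA-binding domain of its own, and is known to reach DNA through partner proteins. MBD3 belongs to NuRD, a complex that moves nucleosomes and removes acetyl groups from histones. The comparison asks which CTCF regions carry TET2, how far apart the centres of the signals lie, and how near to CTCF the remaining TET2 regions lie.

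The TET2 list was much shorter than the CTCF list. Fold enrichment and −log10 q are the authors' values for each peak, and they rank peaks within 1 list. Within the TET2 list the median −log10 q was 3.66, and 12.0% of regions reached 10. The median width was 191 bp for TET2 and 276 bp for CTCF. Read depth is unknown for both lists, so a CTCF region without a TET2 call is one where TET2 was not called, and not one shown to lack TET2. Shares below are followed by their Wilson 95% interval, for counting error alone. Genes are not named, because the lists are in hg19 and no gene positions of that build were used here.

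TET2 was called at 474 CTCF regions, which met 475 TET2 regions. This is 35.8% of the TET2 list and 1.10% of the CTCF list, the backgrounds against which the shares below are read. Both depend on the rule: the share of the TET2 list was 18.4% with a fold of at least 5 in both lists and 20.4% where both regions had to overlap by 50%. Under the same rules the CTCF list had 0.248% and 0.631%, and where −log10 q had to reach 5 or 10 in both lists it had 0.296% or 0.128%. The TET2 regions at CTCF mostly lay well within CTCF: 176 of the 475, or 37.1% (32.8% to 41.5%), fell wholly inside the CTCF region, and the median TET2 region had 88.6% of its length in it. Contacts by an edge were few. Under 10 bases were shared by 3 regions, at chr11:64684508-64684706 with 1 bp, chr6:35995502-35995656 with 7 bp and chr13:77600560-77600724 with 9 bp. Just outside the rule, the smallest gaps were 6 bp at chr7:75544093-75544243, 21 bp at chr9:104160719-104160875 and 23 bp at chr17:56769951-56770236. The TET2 fold was 5.48, 4.82 and 3.43 for the 3 just inside the rule, and 4.51, 3.39 and 4.15 for the 3 just outside.

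CTCF regions that carried TET2 were weaker and more often composite than the rest of the CTCF list. Over 10 equal strata of CTCF fold, the share with TET2 was 4.22% (3.65% to 4.86%) in the weakest stratum, with folds up to 5.01. It was lower in each of the next 4 strata, down to 0.489% in stratum 5. It stood between 0.256% and 0.396% in strata 6 to 9, and was 1.00% (0.744% to 1.35%) in the strongest, above a fold of 35.3, so the upper end of the list came back near the background of 1.10%. Within the weakest stratum the share was 9.35% (6.46% to 13.4%) among the 278 regions with a fold under 3 and 3.86% (3.31% to 4.50%) among the other 4015.

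**Figure D1:**
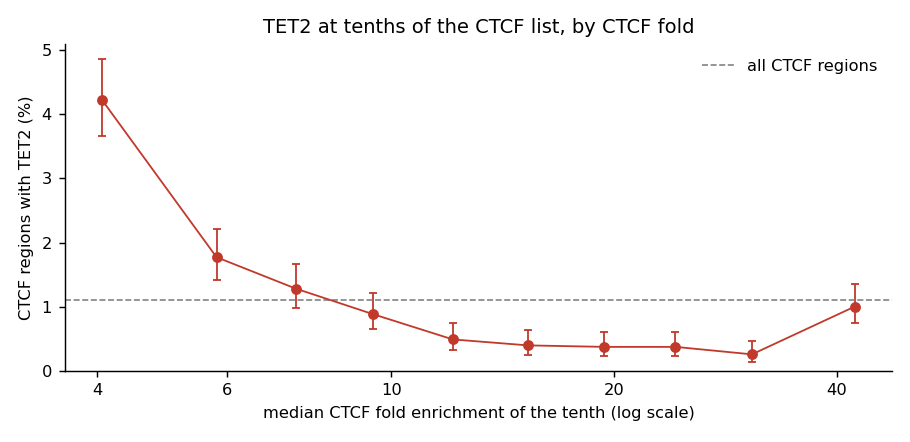
Share of CTCF regions that carried TET2 (y axis, %) in 10 equal strata of the CTCF list, placed at the median CTCF fold of each stratum (x axis, log scale); bars are Wilson 95% intervals and the dashed line is the share in all CTCF regions. The share is 4.22% at the weak end, 0.256% in stratum 9 and 1.00% at the strong end.

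Width of the CTCF region went with TET2 as well, over the whole list only in the widest stratum. Over 5 equal strata of width, the share with TET2 was 1.07%, 0.804%, 0.909%, 0.780% and 1.96% from narrowest to widest. CTCF regions joined from 2 or more rows, which have several summits, carried TET2 in 69 of 900 cases, or 7.67% (6.10% to 9.59%), against 405 of 42025, or 0.964% (0.875% to 1.06%), for regions of 1 row. Strong CTCF regions are also wide, so width was read within 5 equal strata of CTCF fold. In the weakest stratum, regions wider than its median of 190 bp carried TET2 in 4.52% (3.94% to 5.19%) and the others in 1.48% (1.16% to 1.89%). In the strongest stratum, split at 363 bp, the shares were 1.01% (0.752% to 1.36%) and 0.254% (0.142% to 0.454%). The wider class had the higher share in all 5 strata. A wider region can meet more peaks by its length alone. Per covered kb the number of CTCF regions with TET2 was 0.172 in the wider class and 0.0871 in the other in the weakest stratum, and 0.0232 and 0.00789 in the strongest.

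The neighbourhood of the CTCF region made a smaller difference. The 20% of CTCF regions most isolated from other CTCF, with gaps of at least 44720 bp, carried TET2 in 0.641% (0.493% to 0.833%). In the other 4 strata of the gap to the next CTCF region, the share ran from 1.12% to 1.34%. Another CTCF region lay within 10 kb of 44.3% (39.9% to 48.8%) of CTCF regions with TET2 and of 39.7% (39.2% to 40.2%) of those without.

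TET2 was called most often where CTCF was weak and TET1 and MBD3 were called together. TET1 had been called at 34.4% and MBD3 at 8.67% of all CTCF regions. Of CTCF regions with TET2, 55.7% (51.2% to 60.1%) carried TET1 and 34.0% (29.8% to 38.3%) carried MBD3, against 34.1% (33.7% to 34.6%) and 8.39% (8.13% to 8.66%) of those without TET2. Split by what else was called, TET2 was present at 4.0% (3.39% to 4.72%) of the 3375 CTCF regions with both proteins and 7.49% (5.16% to 10.8%) of the 347 with MBD3 only. The shares were 1.13% (0.956% to 1.35%) of the 11371 with TET1 only and 0.661% (0.572% to 0.763%) of the 27832 with neither.

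This pattern was steepest at weak CTCF regions. In the weakest of 5 strata of CTCF fold, 64 of the 118 regions with both TET1 and MBD3 carried TET2, or 54.2% (45.3% to 63.0%). In the strongest stratum it was 39 of 2690, or 1.45% (1.06% to 1.98%). The shares between were 37.2% of 43 regions, 9.84% of 61 and 2.16% of 463 from stratum 2 to stratum 4. Regions with neither protein carried TET2 in 1.56% (1.31% to 1.86%) of 7878 cases in the weakest stratum. In the strongest it was 0 of 711, which allows a share of up to 0.422%. TET1 and MBD3 called together at a weak CTCF region was thus rare, in 118 of 8585 regions.

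**Figure D2:**
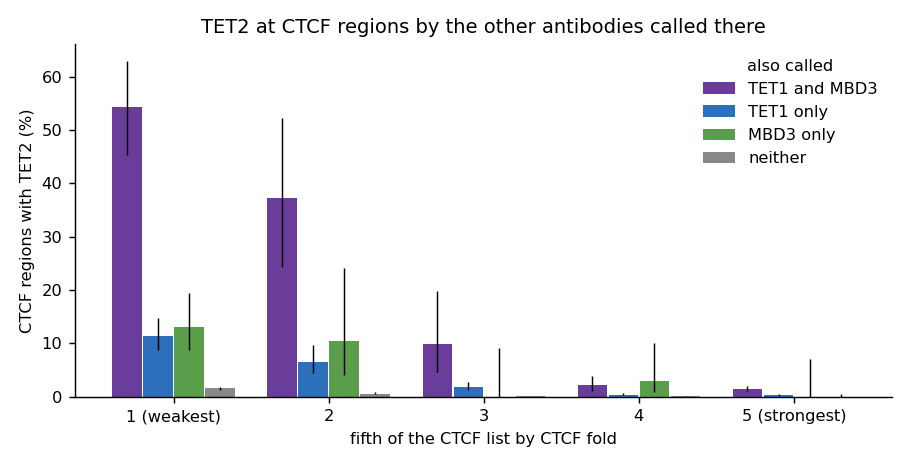
Share of CTCF regions that carried TET2 (y axis, %) in 5 equal strata of the CTCF list by CTCF fold (x axis, weakest at the left), split by the other antibodies called at the region; bars are Wilson 95% intervals. With TET1 and MBD3 the share is 54.2% in the weakest stratum and 1.45% in the strongest.

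Some of these weak regions had a low fold in both the CTCF and the TET2 list. Of the 118, 23 had a CTCF fold under 3, and TET2 was called at 19 of them; 16 of those 19 were met by TET2 regions of a fold under 3 alone. At the other 95 TET2 was called at 45, or 47.4% (37.6% to 57.3%), and counting TET2 regions of a fold of 3 or more alone left 43, or 45.3% (35.6% to 55.3%). Within the TET1 list the median fold in this stratum was 4.23 at the 64 regions with TET2 and 4.39 at the 54 without, and within the MBD3 list it was 5.07 and 4.84. At the strong end, the 39 regions with TET2 had a median CTCF fold of 48.0 against 41.0 for the 2651 without, and a median CTCF width of 467 bp against 385 bp.

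The summits of TET2 and CTCF seldom coincided. The summit is the base of highest signal in a peak, and the median distance from a TET2 summit to the nearest CTCF summit was 75 bp over the 475 regions, and 42 and 29 bp with −log10 q of at least 5 and 10 in both lists. At 51 of them, or 10.7% (8.26% to 13.8%), the summits lay within 10 bp, at 5 on the same base. The distances spread widely: 22.5% lay between 100 and 200 bp, and 78 of 475, or 16.4% (13.4% to 20.0%), lay over 200 bp apart, up to 752 bp. A joined CTCF region counts here with 1 summit, that of its best supported row. With single rows in place of joined regions, the median was 65 bp and 41.3% lay within 50 bp, against 36.6% as joined. Of CTCF regions with TET2, 14.6% were joined from several rows, against 1.96% of those without. How the joining bears on the comparison with TET1 and MBD3 was not tested. For TET1 the share within 10 bp was 65.7% (65.0% to 66.5%) and for MBD3 46.1% (44.5% to 47.7%), and 0.953% and 2.01% lay over 200 bp off. The lists differ in support: −log10 q reached 10 in 65.2% of TET1, 15.3% of MBD3 and 12.0% of TET2 regions. How far this bears on the summit distances was not tested. The TET2 summit was inside the CTCF region in 85.5% (82.0% to 88.4%) and the CTCF summit inside the TET2 region in 66.5% (62.2% to 70.6%). In 9.47% (7.16% to 12.4%) neither summit lay in the other region, against 0.277% for TET1 and 0.859% for MBD3. TET2 summits fell on either side of CTCF alike, 228 at a higher and 242 at a lower coordinate. The orientation of the CTCF motif was not used.

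**Figure D3:**
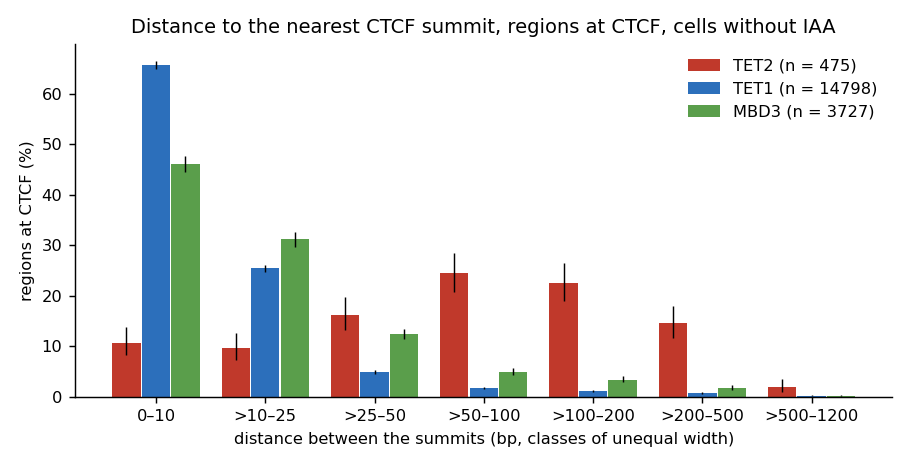
Distance between the summit of a region and the nearest CTCF summit (x axis, bp, in classes of unequal width) for TET2, TET1 and MBD3 regions at CTCF in cells without IAA, as a share of each protein's regions at CTCF (y axis, %); bars are Wilson 95% intervals. The share within 10 bp is 10.7% for TET2, 65.7% for TET1 and 46.1% for MBD3. The 3 lists differ in peak support.

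In each of 5 strata of CTCF fold, the median summit distance was larger for TET2 than for TET1 and MBD3, by little against MBD3 in the weakest. In the weakest stratum the median distance was 67.5 bp for TET2 (n = 258), 38 bp for TET1 (n = 557) and 58 bp for MBD3 (n = 270). There 39.5% (33.8% to 45.6%) of TET2 and 46.3% (40.4% to 52.3%) of MBD3 summits lay within 50 bp, with overlapping intervals. TET1 and MBD3 lay closer to CTCF at higher CTCF folds, with medians of 6 bp and 10 bp in the strongest stratum, where 99.3% and 96.9% of summits lay within 50 bp. TET2 did not follow this order. Its medians were 81, 126.5 and 223 bp in strata 2, 3 and 4, and 58 bp (quartiles 26.2 and 145) in the strongest, where 24 of 54 summits, or 44.4% (32.0% to 57.6%), lay within 50 bp. Stratum 4 rested on 32 TET2 regions, of which 5 lay within 50 bp. The CTCF regions with TET2 there were mostly wide, 30 above the stratum's median width of 319 bp and 2 not. In the strongest stratum 43 were above its median of 363 bp and 11 not. How width and joined regions bear on these distances was not tested. Across the 475 regions Spearman's rho between summit distance and CTCF fold was 0.16, over points that all come from the same 2 pooled lists.

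Regions called with both TET1 and TET2 show the same contrast at the same CTCF sites. At the 253 TET2 regions that carried CTCF and TET1, the median distance to the CTCF summit was 67 bp for TET2 and 18 bp for TET1. TET1 lay nearer to the CTCF summit at 177 of them, TET2 at 73, and they were level at 3. At the 151 with CTCF and MBD3 the medians were 51 bp for TET2 and 37 bp for MBD3, with MBD3 nearer at 77 and TET2 nearer at 72. TET2 summits lay closest to CTCF where both proteins were called, at a median of 48 bp (n = 125), against 84.5 bp with TET1 only (n = 128), 80 bp with MBD3 only (n = 26) and 87 bp with neither (n = 196). The 125 include 16 of the 17 regions with both folds under 3, whose median distance was 11 bp. The median of the 125 without low-fold regions was not computed.

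The best supported stratum of TET2 regions lay closer to the CTCF summit. Over 5 equal strata of TET2 −log10 q, the median distance was 77, 105, 78 and 75 bp in the lower 4 and 42 bp (quartiles 11 and 115.5) in the highest, with −log10 q of at least 7.38. In that highest stratum 52 of 95 summits, or 54.7% (44.7% to 64.4%), lay within 50 bp, the highest share of the 5. Low-fold regions are part of that stratum. The 17 regions with both folds under 3 had a median −log10 q of 19.1 and a median distance of 11 bp. At the 4 regions with both folds of at least 10 the median distance was 231 bp. Distances over strata of −log10 q without low-fold regions were not computed. The strength of TET2 went little with that of CTCF: Spearman's rho between the 2 folds was 0.08 over the 475 regions.

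**Figure D4:**
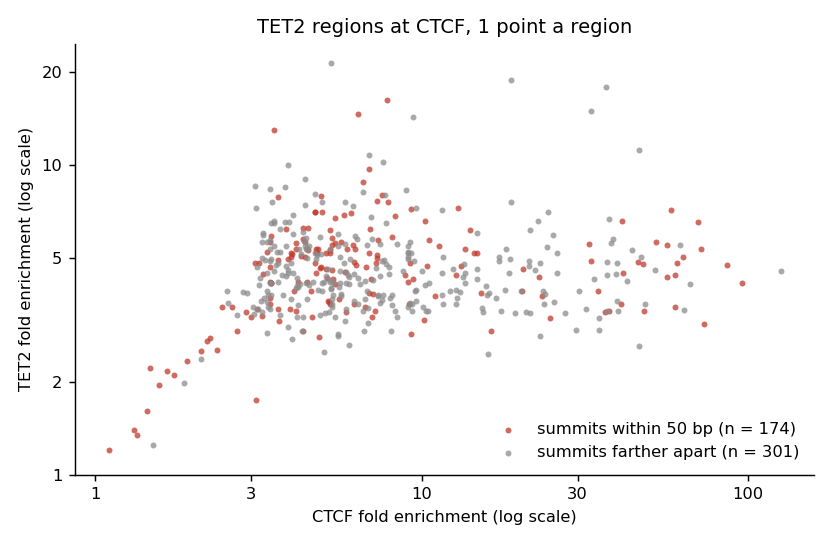
TET2 fold enrichment (y axis, log scale) against CTCF fold enrichment (x axis, log scale) for the 475 TET2 regions at CTCF, 1 point a region, coloured by whether the summits lay within 50 bp (n = 174) or farther apart (n = 301). The 17 regions with both folds under 3 form a sloping tail at the lower left, and above that the folds show little relation.

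A small set of low-fold regions stood apart from the rest. At 17 of the 475 both folds were under 3, and there the folds went together (rho 0.92). Their summits lay a median of 11 bp apart, 14 of the 17 within 50 bp, 16 carried both TET1 and MBD3, and the median TET2 −log10 q was 19.1. At the 429 regions with both folds of 3 or more, rho was -0.08, the median summit distance was 77 bp, 223 carried TET1, 129 carried MBD3 and the median −log10 q was 3.62. The part of background signal in the 17 was not tested. Of the 3 regions of highest TET2 −log10 q with summits within 10 bp, all were of this low-fold kind. They lay at chr19:27731970-27732320, chr10:42400195-42400706 and chr4:68265509-68265686, with −log10 q of 307, 82.6 and 78.7. The TET2 fold was 2.096, 2.22 and 2.70, the CTCF fold 1.75, 1.47 and 2.19, the TET1 fold 2.01, 2.13 and 2.64 and the MBD3 fold 2.12, 2.098 and 2.83, each in its own list. The CTCF regions on chromosomes 19 and 10 were still called with IAA, when 54 of the 42925 (0.126%) were, 8 of the 474 with TET2 and 46 of the others.

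The strongest TET2 regions at CTCF mostly had summits far from the CTCF summit. The highest, at chr22:41864736-41865168, had a TET2 fold of 21.3 and met a weak CTCF region, at 5.26-fold and rank 37883 of 42925, with summits 115 bp apart and neither TET1 nor MBD3. At chr11:61334729-61335049 TET2 stood at 18.9-fold and CTCF at 18.8-fold, with summits 287 bp apart and again neither other protein. At chr3:12882830-12883444 and chr3:129118216-129118638 the TET2 fold was 17.8 and 14.997, the CTCF fold 36.7 and 33.0, and the summits lay 256 and 206 bp apart. TET1 was called at both and MBD3 at the second. The exception lay at chr10:32428295-32428536, where the summits were 2 bp apart, TET2 stood at 16.2-fold, CTCF at 7.82-fold, and TET1 and MBD3 were both called.

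At the 5 strongest CTCF regions that carried TET2 the summits lay 14 to 52 bp apart, with TET2 folds on either side of its list's median. At chr1:112933550-112933697 and chr17:34476389-34476538 the TET2 fold was 5.34 and 3.07, the CTCF fold 71.6 and 73.0, the summits lay 26 and 14 bp apart, and TET2 ranked 424 and 1218 of 1326 by fold. The 3 sites above them by CTCF fold had TET2 at chr12:58299194-58299414, chr5:172571388-172571561 and chr17:41561075-41561297. There the summits lay 52, 43 and 21 bp apart, and TET2 ranked 683, 856 and 620 of 1326 by fold. TET1 and MBD3 were called at all 5. Over the whole strongest stratum of 10, TET1 was called at all 43 TET2 regions and MBD3 at 31, and the median summit distance was 52 bp (quartiles 21 and 124). TET1 is common at strong CTCF regions in any case. Of the 8585 CTCF regions in the strongest of 5 strata, 2690 carried TET1 and MBD3, 5133 TET1 only, 51 MBD3 only and 711 neither. The same counts for the strongest stratum of 10 were not computed.

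A single CTCF region met more than 1 TET2 region. It lay at chr11:64684706-64684996, was 291 bp wide, and had a weak CTCF call of 3.85-fold. The TET2 regions stood on either side, at 64684508 to 64684706 with a fold of 5.48 and at 64684861 to 64685272 with a fold of 4.74, their summits 194 and 172 bp from that of CTCF. The first shares 1 bp with the CTCF region, so the pairing rests on that base.

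TET2 regions at CTCF were slightly weaker by median fold than those away from it, and wider. The median TET2 fold was 4.46 (quartiles 3.65 and 5.38) at CTCF and 4.76 (quartiles 3.95 and 5.75) away, and the median width 202 bp and 185 bp. By −log10 q they hardly differed, with medians of 3.64 and 3.72. The share at CTCF was 44.7% (38.9% to 50.7%) in the weakest of 5 strata of TET2 fold and 27.5% (22.5% to 33.2%) in the strongest, while over strata of −log10 q it ran from 34.0% to 39.2% with no order. Over strata of width it was 29.7% (24.5% to 35.4%) in the narrowest and 46.4% (40.5% to 52.4%) in the widest, and a wide region can meet CTCF by its length alone.

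Over all TET2 regions, the share with TET1 differed by CTCF and the share with MBD3 did not. The lists of TET1 and MBD3 without IAA differ in the same way: 14798 of 16246 TET1 regions lay at CTCF, and 3727 of 6608 MBD3 regions. How far this bears on the shares below was not tested. TET1 was called at 34.3% of all TET2 regions, at 53.3% (48.8% to 57.7%) of those at CTCF and at 23.7% (21.0% to 26.7%) of those away. MBD3, called at 31.6% of all TET2 regions, was found at 31.8% (27.8% to 36.1%) of TET2 regions at CTCF and 31.5% (28.5% to 34.7%) of those away. Without regions that touch all 4 antibodies in either condition, a filter that takes MBD3 and TET1 from TET2 regions at CTCF by its construction, MBD3 was at 7.37% (5.04% to 10.7%) at CTCF and 31.1% (28.1% to 34.3%) away. TET1 or MBD3 was then called at 43.1% (37.9% to 48.4%) at CTCF and 41.2% (38.0% to 44.6%) away, with overlapping intervals, against 58.7% and 40.9% over all regions. Away from CTCF, 503 of 851 TET2 regions, or 59.1% (55.8% to 62.4%), carried neither, against 196 of 475, or 41.3% (36.9% to 45.7%), at CTCF. These 503 regions with none of the 3 proteins were the most common kind, 37.9% of the TET2 list. They held 12 of the 26 TET2 regions with a fold of at least 10. At CTCF were 11 of the 26, against 35.8% of the whole TET2 list. None of these 26 was called with IAA, when 6 of the 1326 (0.452%) were.

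The 851 TET2 regions away from CTCF lay nearer to CTCF than base positions of the genome do. A nearest CTCF region could be given for 835, and the other 16 are on the mitochondrial sequence, which had no CTCF region. The median gap was 15055 bp (quartiles 3861.5 and 34659). Over all base positions outside CTCF regions on chromosomes 1 to 22 and X, up to the highest listed position, the median gap was 32722 bp. Those positions include stretches where no peak can be called, which lengthen their gaps, by how much was not tested. The contrast was greatest close by. A CTCF region lay within 1 kb of 109 TET2 regions, or 13.1% (10.9% to 15.5%), and of 2.71% of base positions, and within 10 kb the shares were 41.2% (37.9% to 44.6%) and 21.9%. Within 100 kb they were 94.6% and 78.5%.

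TET2 regions away from CTCF lay about as near to it as the TET1 regions that did not touch CTCF, and nearer than those of MBD3. Within 1 kb of CTCF were 13.1% of the TET2 regions, 12.5% (10.9% to 14.3%) of 1434 TET1 regions and 5.51% (4.73% to 6.41%) of 2867 MBD3 regions. The median gaps were 15055 bp for TET2, 15239.5 bp for TET1 and 20493 bp for MBD3. The intervals of TET2 and TET1 overlapped at each gap examined, while up to 50 kb those of TET2 and MBD3 did not. CTCF regions themselves had a median gap of 14841 bp to the next CTCF region, with 6.37% (6.14% to 6.60%) within 1 kb and 39.8% within 10 kb.

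**Figure D5:**
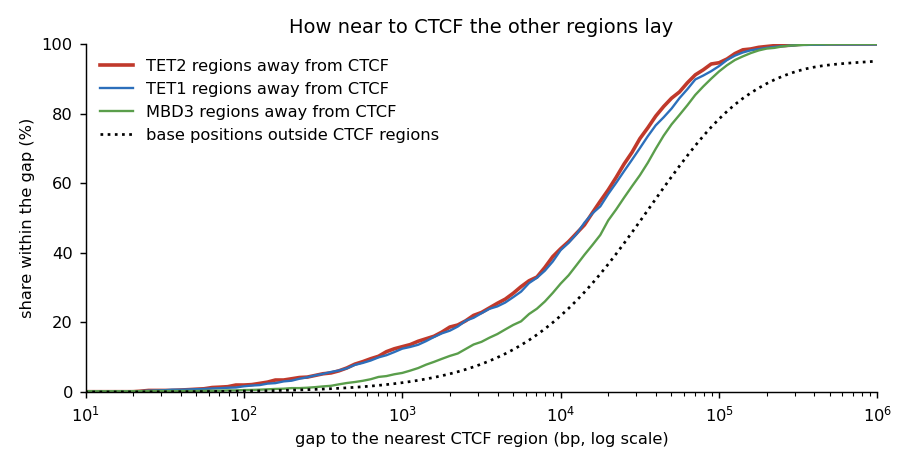
Share of regions away from CTCF whose gap to the nearest CTCF region was at most the value on the x axis (bp, log scale), for TET2, TET1 and MBD3, and the same share of base positions outside CTCF regions (dotted); the y axis is in %. At 1000 bp the share is 13.1% for TET2, 12.5% for TET1, 5.51% for MBD3 and 2.71% for base positions.

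The partners of TET2 regions varied with the distance to CTCF. Of the 174 at CTCF with summits within 50 bp, TET1 was called at 62.1% (54.7% to 68.9%) and MBD3 at 43.1% (36.0% to 50.5%). Of the 301 at CTCF with summits farther off, the shares were 48.2% (42.6% to 53.8%) and 25.2% (20.7% to 30.4%). The 109 regions with a gap under 1 kb had TET1 at 19.3% (13.0% to 27.7%) and MBD3 at 13.8% (8.52% to 21.5%). For MBD3 this was under its share farther out, while the intervals of TET1 overlapped. At gaps of 1 to 10 kb (n = 235) they were 25.5% (20.4% to 31.5%) and 30.6% (25.1% to 36.8%), and at 10 to 100 kb (n = 446) 21.3% (17.8% to 25.3%) and 31.8% (27.7% to 36.3%). At gaps of 100 kb or more MBD3 was called at 23 of 45, or 51.1% (37.0% to 65.0%). The CTCF region nearest to TET2 was weak when it was close, with a median CTCF fold of 6.02 at gaps under 1 kb, 10.1 at 1 to 10 kb and 12.1 at 10 to 100 kb, against 13.6 for the whole CTCF list.

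The TET2 regions of highest fold in the whole list lay away from CTCF. The 3 highest, at chr2:174219127-174219618, chr2:44588911-44589344 and chr1:228674573-228675064, had TET2 folds of 45.3, 43.0 and 39.0. They were 42770, 18646 and 13551 bp from a CTCF region, with CTCF folds there of 6.05, 7.06 and 34.2. TET1 was called at the first and MBD3 at none. The next lay at chr22:50050532-50050814 and chr2:25895611-25895956, with TET2 folds of 28.0 and 23.9, 24004 and 7674 bp from CTCF, and carried neither TET1 nor MBD3. Farthest from CTCF were chr14:63158895-63159151, chr10:36712760-36713075 and chr9:84763894-84764041, with gaps of 347417, 301333 and 300263 bp and TET2 folds of 4.84, 7.48 and 5.49. MBD3 was called at all 3 of these and TET1 at the last 2.

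The share of TET2 regions at CTCF varied among chromosomes within wide intervals. On chromosomes 1 to 22 and X it ran from 21.1% (8.51% to 43.3%) of 19 regions on chromosome 18 to 48.0% (37.1% to 59.1%) of 75 on chromosome 17. Among chromosomes with over 50 TET2 regions it was lowest on chromosomes 9 and 4, at 21.7% (13.1% to 33.6%) and 21.7% (14.5% to 31.2%). Relative to CTCF, TET2 regions were most frequent on chromosome 13, at 5.40 for every 100 CTCF regions, and chromosome 10, at 5.11, and least on chromosomes 20 and X, at 1.21 and 1.22.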

How the data were processed

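Peaks are in build hg19, per the submitters' processing notes, which list MACS2 2.1.2, Bowtie2 2.3.4, bedtools 2.25.0, SAMtools 1.9 and FastQC 0.11.7 but not the step of each. The deposited lists are narrowPeak files, each of 3 pooled samples, per the labels; the sources used here do not give the control. Per the files, the highest q was 0.0497. The deposited columns used are the fold enrichment (a ratio) and −log10 of the q-value, both by the authors, and the summit offset; the deposited integer score and −log10 p were not used.

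Rows sharing a base were joined, keeping the largest fold and −log10 q, with the summit of the best supported row. Distances are between summits, gaps between edges. Coordinates are in hg19, counted from 1. Shares have Wilson 95% intervals. No p-value is given, since regions of pooled lists are not replicates. Regions were named by fixed orders of fold, −log10 q and gap on chromosomes 1 to 22 and X; the groups by fold under 3, those just inside the overlap rule and the chromosomes named were chosen after their values were seen. The members and rules were chosen with earlier results of these data known. Sequence at the summits was not analysed here. Python 3.11.15, pandas 2.3.3, NumPy 2.4.6 and SciPy 1.17.1 were used, and the code was tested on simulated data.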

Additional observations from a re-analysis of the deposited data

How the results depend on the processing

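Of 87 values under other settings, 48 stayed within the 95% interval of the reported value and 39 did not. The order of the groups was recomputed for the median TET2 fold, the median CTCF fold and the share with TET1 or MBD3, under 4 settings each, and did not turn. For TET1 alone and MBD3 alone it was recomputed under 2 settings, chosen after seeing the data, and turned for MBD3 without regions that touch all 4 antibodies. The share of TET2 regions at CTCF was 20.4% with 50% overlap of both regions, 30.2% with summits within 200 bp, 25.5% and 27.7% at −log10 q of at least 5 and 10 in both lists, 18.4% at fold of at least 5 and 28.2% without regions that touch all 4 antibodies in either condition. In the same order the share of CTCF regions with TET2 was 0.631%, 0.930%, 0.296%, 0.128%, 0.248% and 0.790%. It was 1.26% for single rows and 1.00% without folds under 3, a setting chosen after seeing the data. The median summit distance was 53 bp with 50% overlap, 42 and 29 bp at −log10 q of 5 and 10, 59.5 bp at fold 5, 65 bp for single rows and 61 bp between region centres. The share within 50 bp was then 48.3%, 55.1%, 54.5%, 46.9%, 41.3% and 42.3%. The 29 bp rested on 44 regions, with a 95% interval of 11 to 134 bp that holds the reported 75 bp. Away from CTCF, fold of at least 5 gave a median gap of 17558 bp and 34.4% within 10 kb; 28.3% lay within 5 kb and 84.4% within 50 kb. At −log10 q of at least 5 the median TET2 fold was 5.59 at CTCF and 6.20 away, the median CTCF fold without TET2 was 14.8, and 35.7% of TET2 regions away carried TET1 or MBD3. Without folds under 3 the median TET2 fold at CTCF was 4.62. Without regions that touch all 4 antibodies, 43.1% (37.9% to 48.4%) of TET2 regions at CTCF and 41.2% (38.0% to 44.6%) of those away carried TET1 or MBD3, so the intervals overlap. In that setting TET1 was at 35.7% at CTCF and 24.2% away, and MBD3 at 7.37% and 31.1%; the lower values at CTCF are built into the filter. Without folds under 3, TET1 was at 20.0% away. Stricter thresholds leave fewer regions in both lists. The cause of the other shifts was not tested. No paired analysis was possible because the samples of each group were pooled before peaks were called, and no sample could be left out for the same reason.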

Other observations

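Some TET2 regions lay close to each other. On chromosomes 1 to 22 and X, 138 of 1295 lay in 58 runs of 2 or more with gaps of at most 10 kb. No background for such runs was computed. On these chromosomes another TET2 region lay within 10 kb of 8.58% (6.37% to 11.5%) of TET2 regions at CTCF and of 11.8% (9.80% to 14.2%) of those away, with overlapping intervals. The longest run held 7 regions at chr11:51579507-51590632, of which 3 were at CTCF, 6 carried TET1 and 7 carried MBD3, with TET2 folds between 1.85 and 3.47. Runs of 6 at chr2:92305599-92325260, and of 5 at chr10:42529309-42543876, had all their folds under 3, up to 2.37 and 2.13. A run of another kind lay at chr4:189424823-189429352. Its 5 TET2 regions had folds between 3.81 and 6.18, and neither CTCF, TET1 nor MBD3 was called at any of them.

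The mitochondrial sequence held 16 TET2 regions, with folds between 1.20 and 2.26 and −log10 q up to 194. TET1 and MBD3 were called at all 16, and the list of CTCF had no region there. On the sequence chr9_gl000199_random lay 10 TET2 regions, 5 of them at CTCF, with folds between 1.74 and 3.71.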
